A study of Rattus norvegicus with 6 samples.

Results

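The mitochondrial genome of the rat is listed in the deposited table with 37 genes, which were taken as every row whose chromosome is MT. They comprise 13 mRNAs, 2 rRNAs and 22 tRNAs, out of 34156 rows in all. Their RNA was compared in fibroblast-like synoviocytes of the rat (RA-FLS, cells of the joint lining, labelled wild type and of a rheumatoid arthritis state). The TNF-α group held 3 libraries from cells that received TNF-α at 10 ng/mL, and the TNF-α+EMO group 3 libraries from cells that received the same dose of TNF-α with 80 μmol/L EMO. TNF-α is an inflammatory cytokine, and EMO is emodin, an anthraquinone from rhubarb. The labels give day 5 for all 6 libraries, whereas the study's methods describe harvest after a shorter incubation, so the length of exposure to EMO is uncertain. All cells received TNF-α and no untreated cells were analysed here, so every difference below is that of EMO on top of TNF-α. The study's methods call the libraries of a group biological replicates, and the labels do not say how the cultures were kept apart, so p-values measure the spread between these libraries. Cells had been passaged in medium with serum, and mRNA was purified on oligo(dT) beads before the libraries were made.

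Mitochondrial DNA is a small circle that the mitochondrial RNA polymerase transcribes from both strands into long precursors. The tRNAs lie between most of the other genes, and their excision by RNases releases the mRNAs and rRNAs. All 13 mRNAs encode membrane subunits of the respiratory chain or the ATP synthase, 7 of them in complex I (NADH dehydrogenase), 1 in complex III (cytochrome bc1), 3 in complex IV (cytochrome c oxidase) and 2 in complex V (ATP synthase). The other subunits, and all proteins that copy, transcribe, process and translate the mitochondrial genome, are made from nuclear genes. Most mitochondrial mRNAs carry poly(A) tails, that of Mt-nd6 is known to lack a regular tail, the rRNAs carry short A tails or none, and tRNAs carry none. In libraries purified on oligo(dT) the counts of rRNAs, tRNAs and Mt-nd6 are therefore not a measure of how much of them a cell holds relative to the other mRNAs.

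The libraries held 16813322 to 17794455 counts on genes. Of the 13614 genes that reached 10 counts in 3 or more libraries, 80.9% passed an adjusted p under 0.05, 41.4% lower and 39.4% higher in the TNF-α+EMO group, which is the background for every count below. Replicate 3 of the TNF-α+EMO group stood apart from the other libraries of its group, with a chi-square per gene of 23.5 and 15.1 against them, where the other pairs within a group gave 4.62 to 6.27. Markers of fibroblasts were high in the TNF-α group and lower with EMO, with 15963 to 17554 against 2060 to 2205 CPM (counts scaled to a library total of 1000000) summed over the 8 listed markers in the table, of which 6 passed the filter and all 6 were lower. Col1a1, the collagen I chain, had 102801 to 121730 counts in the TNF-α group and 3554 to 3672 in the TNF-α+EMO group, and Vim, an intermediate filament protein, had 61485 to 63786 and 30071 to 32836. The synoviocyte markers Thy1 and Prg4 did not exceed 7 counts in any library. Of the 6 listed macrophage markers, Ptprc, Csf1r and Adgre1 stayed at or under 5 counts. Cd14 had 1055 to 1163 counts against 451 to 536 with EMO, Cd68 142 to 172 against 239 to 259, and Itgam 0 or 1 against 10 to 14. Summed macrophage markers were at 72.4 to 78.1 and 42.1 to 45.1 CPM. T cell and endothelial markers did not exceed 18 counts in any library. Of the epithelial markers, Krt8 had 10193 to 11087 counts in the TNF-α group and 1908 to 2262 with EMO, while Epcam was at 0 and Krt18 at 0 or 1. Of the chondrocyte markers, Sox9 had 459 to 548 counts and 1 to 6 with EMO, Col2a1 had 0 and then 2 to 5, and Acan was at 0. Fewer cells of a type, fewer mitochondria per cell, less RNA in each and a change in which cells were present cannot be told apart in bulk RNA, and the part of the marker changes in the results below was not tested.

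All 13 mitochondrial mRNAs fell with EMO and both rRNAs rose. In each of the 15 genes no TNF-α+EMO library reached into the range of the TNF-α libraries, as was the case for 82.9% of all genes tested (42.5% lower and 40.3% higher with EMO). The mRNAs together took 588645, 603482 and 559585 counts under TNF-α alone against 36703, 33706 and 34017 with EMO. Their share of a library was 3.45% ± 0.114 in the TNF-α group and 0.200% ± 0.0122 in the TNF-α+EMO group (SD, n = 3 each), and the summed normalized counts fell 16.0-fold. The rRNAs took 3562, 4114 and 3862 counts in the TNF-α group and 31771, 31613 and 30577 with EMO, and their share went from 0.0227% ± 0.00164 to 0.180% ± 0.00682, with 8.54-fold more normalized counts. All 37 genes together made up 3.47% ± 0.114 and 0.379% ± 0.0180 of the counts. For each of these shares the groups did not overlap and the exact two-sided permutation test gave p = 0.1, the smallest p that 3 libraries against 3 can give.

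Compared with all genes, the loss of mRNA was large. An adjusted p under 0.05 with a log2 fold change under -2 was found in 12 of the 13 mRNAs and in 16.6% of the genes tested. The median over the 13 was -4.32 where that over all genes tested was -0.01. The 5th percentile of all genes lay at -4.81, so 3 mRNAs, Mt-nd3, Mt-co2 and Mt-nd6, fell beyond it. The rRNAs lay on the other side of the distribution, at 3.00 and 3.15, where 354 and 326 of the other genes tested had a larger increase and the 95th percentile was 2.17. An adjusted p under 0.05 with a log2 fold change over 2 was found in 5.94% of the genes tested.

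**Figure D1:**
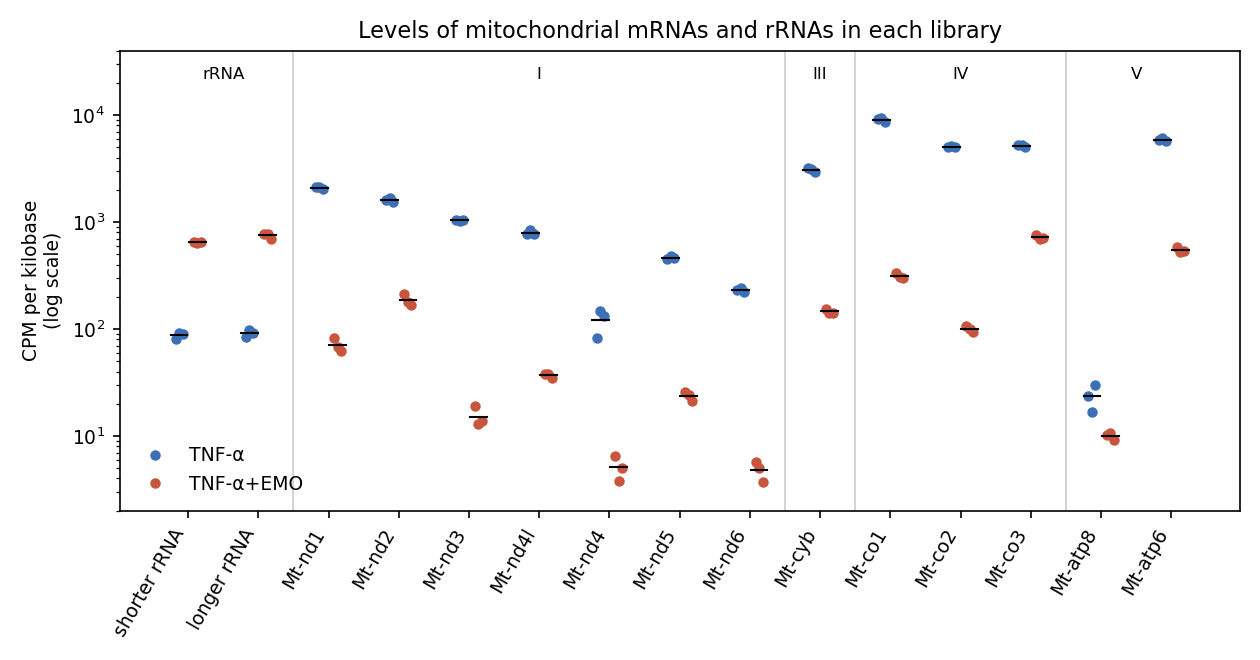
Levels of the 2 mitochondrial rRNAs and 13 mRNAs in each library, as CPM per kilobase on a log axis. Each point is a library, the bar is the mean of 3 libraries, and the mRNAs are grouped by complex I, III, IV and V. The red points of the TNF-α+EMO group lie above the blue points of the TNF-α group for the rRNAs and below them for every mRNA, by the least for Mt-atp8 (23.4 against 10.0).

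Complex IV holds the catalytic core of cytochrome c oxidase, and its mRNAs made up most of the mitochondrial counts in the TNF-α group (2.15% of the library). Mt-co1 (ENSRNOG00000034234; MT, 5323 to 6867, plus strand, coordinates here and below as deposited, Rnor_6.0) encodes the subunit that reduces oxygen. Mt-co1 had 240770, 246730 and 225114 counts under TNF-α alone against 8847, 8318 and 8211 with EMO. It was the gene with the highest level per length of all rows in every TNF-α library, and in the TNF-α+EMO libraries it ranked between 267 and 336. Its normalized counts fell from 232022 ± 11239 to 8667 ± 404 (SD, n = 3 each; log2 fold change -4.74, SE 0.07, adjusted p = 1.5e-12 by edgeR). Mt-co2 (ENSRNOG00000030371; 7006 to 7689, plus) encodes the subunit that accepts electrons from cytochrome c. Mt-co2 had 57886, 59216 and 58315 counts under TNF-α alone against 1249, 1183 and 1146 with EMO. With 2.14% of its normalized counts left, it fell by 5.55 on the log2 scale (SE 0.07, adjusted p = 8.1e-13).

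Mt-co3 (ENSRNOG00000030700; 8599 to 9382, plus) encodes the remaining core subunit, and apart from Mt-atp8 its mRNA lost the least. It had 69455, 69513 and 65750 counts under TNF-α alone against 10233, 9553 and 9932 with EMO, so that 15.2% was left (log2 fold change -2.72, SE 0.06, adjusted p = 1.5e-11). In the TNF-α group the per-length levels of Mt-co3 (5142 ± 134 CPM per kilobase) and Mt-co2 (5051 ± 59.5) overlapped. With EMO they stood at 724 ± 31.2 and 100.0 ± 6.06 and did not overlap. Within a library, the log2 ratio of Mt-co3 to Mt-co2 counts was 0.26, 0.23 and 0.17 under TNF-α alone against 3.03, 3.01 and 3.12 with EMO, a ratio 7.12-fold larger. This pair was chosen after its values were seen, so the ratio is a description and was given no test.

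Complex V, the ATP synthase, has 2 mitochondrial subunits of its proton-conducting part. Mt-atp6 (ENSRNOG00000031979; 7919 to 8599, plus), which forms the proton path, had 67284, 71302 and 65936 counts under TNF-α alone against 6849, 6274 and 6525 with EMO. It kept 10.1% of its normalized counts (log2 fold change -3.31, SE 0.06, adjusted p = 7.5e-12), and as with Mt-co3, which adjoins it, this was more than most mRNAs kept. Mt-atp8 (ENSRNOG00000033299; 7758 to 7961, plus), a small accessory subunit, had 81, 58 and 103 counts under TNF-α alone against 36, 38 and 33 with EMO. It fell by 1.11 on the log2 scale (SE 0.26, adjusted p = 0.0023), the smallest change of the 13. Mt-atp8 and Mt-atp6 overlap by 43 bases and are known to be read from the same mRNA, yet their per-length levels were 253-fold apart in the TNF-α group and 55.0-fold apart with EMO. How reads that touch both genes were counted is not stated in the sources used here, so the level of Mt-atp8 and its change are uncertain.

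Complex III has a single mitochondrial subunit, cytochrome b. Mt-cyb (ENSRNOG00000031766; 14136 to 15278, plus) had 61724, 61252 and 55916 counts under TNF-α alone against 3013, 2828 and 2901 with EMO. The groups were far apart, and 5.13% of the normalized counts remained (log2 fold change -4.29, SE 0.07, adjusted p = 2.8e-12).

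Complex I holds 7 of the 13 mRNAs, all encoding parts of its membrane arm, where protons are pumped. Mt-nd1 (ENSRNOG00000030644; 2740 to 3694, plus), next to the site where ubiquinone is bound, had 34608, 34841 and 32462 counts under TNF-α alone against 1361, 1118 and 1049 with EMO (log2 fold change -4.78, SE 0.10, adjusted p = 3.1e-11). Mt-nd2 (ENSRNOG00000031033; 3904 to 4942, plus), an antiporter-like subunit, had 28595, 29803 and 26864 counts and then 3792, 3217 and 3104 (log2 fold change -3.01, SE 0.09, adjusted p = 1.4e-10). These genes lie close together on the circle, and their order reversed. Mt-nd1 had more counts in all TNF-α libraries and Mt-nd2 in all TNF-α+EMO libraries, with a log2 ratio of Mt-nd2 to Mt-nd1 of -0.28, -0.23 and -0.27 and then of 1.48, 1.52 and 1.57. That pair, too, was chosen after its values were seen.

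Mt-nd3 (ENSRNOG00000033615; 9451 to 9798, plus), which links the membrane arm to the matrix arm, had the largest fall of the 20 genes tested. It had 6204, 6000 and 6158 counts under TNF-α alone against 113, 78 and 85 with EMO, so that 1.58% was left (log2 fold change -5.98, SE 0.11, adjusted p = 8.0e-12). In place 46 to 51 by per-length level in the TNF-α libraries, it came to rank between 4647 and 5691. Mt-nd5 (ENSRNOG00000029971; 11736 to 13565, plus), the antiporter-like subunit at the far end of the arm, had 14126, 14900 and 14116 counts and then 813, 769 and 687 (log2 fold change -4.18, SE 0.08, adjusted p = 8.0e-12).

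Mt-nd4l and Mt-nd4 overlap by 7 bases and are known to be read from 1 mRNA. Mt-nd4l (ENSRNOG00000031053; 9870 to 10166, plus) had 3904, 4277 and 3833 counts under TNF-α alone against 192, 195 and 186 with EMO (log2 fold change -4.32, SE 0.08, adjusted p = 5.4e-12). Mt-nd4 (ENSRNOG00000029707; 10160 to 11537, plus) had 1945, 3469 and 3068 counts and then 154, 90 and 124 (log2 fold change -4.46, SE 0.33, adjusted p = 6.6e-05). Mt-nd4 was the most scattered of the well-counted mRNAs, with SDs of 764 on 2760 normalized counts in the TNF-α group and 33.4 on 126 with EMO. The per-length level of Mt-nd4l was 6.57-fold that of Mt-nd4 in the TNF-α group and 7.22-fold with EMO. The overlap covers 7 of the 1378 bases of Mt-nd4. How reads that touch both genes or map to several sites were counted is not stated, so the level of Mt-nd4 is uncertain as well. The fold changes of Mt-nd4l and Mt-nd4 differed by less than the SE of the latter.

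Mt-nd6 (ENSRNOG00000029042; 13543 to 14061, minus strand) is the only mRNA encoded on the other strand, so it comes from a different precursor than the other 12. It had 2063, 2121 and 1950 counts under TNF-α alone against 51, 45 and 34 with EMO, with 2.22% left (log2 fold change -5.49, SE 0.12, adjusted p = 2.3e-11). The log2 ratio of Mt-nd6 to the sum of the other mRNAs was -8.15, -8.15 and -8.16 under TNF-α alone against -9.49, -9.55 and -9.97 with EMO. The ratio was lower with EMO by 1.51 on the log2 scale, with no overlap between the groups (exact two-sided permutation test, p = 0.1). Because this mRNA lacks a regular tail, both its level and this ratio also depend on its capture on oligo(dT), and the part of capture was not tested. Mt-nd6 overlaps Mt-nd5 by 23 bases on the opposite strand. Whether the counting used the strand is not stated in the sources used here, so reads from the opposite strand may be part of the count of Mt-nd6, as of any other gene here.

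**Figure D2:**
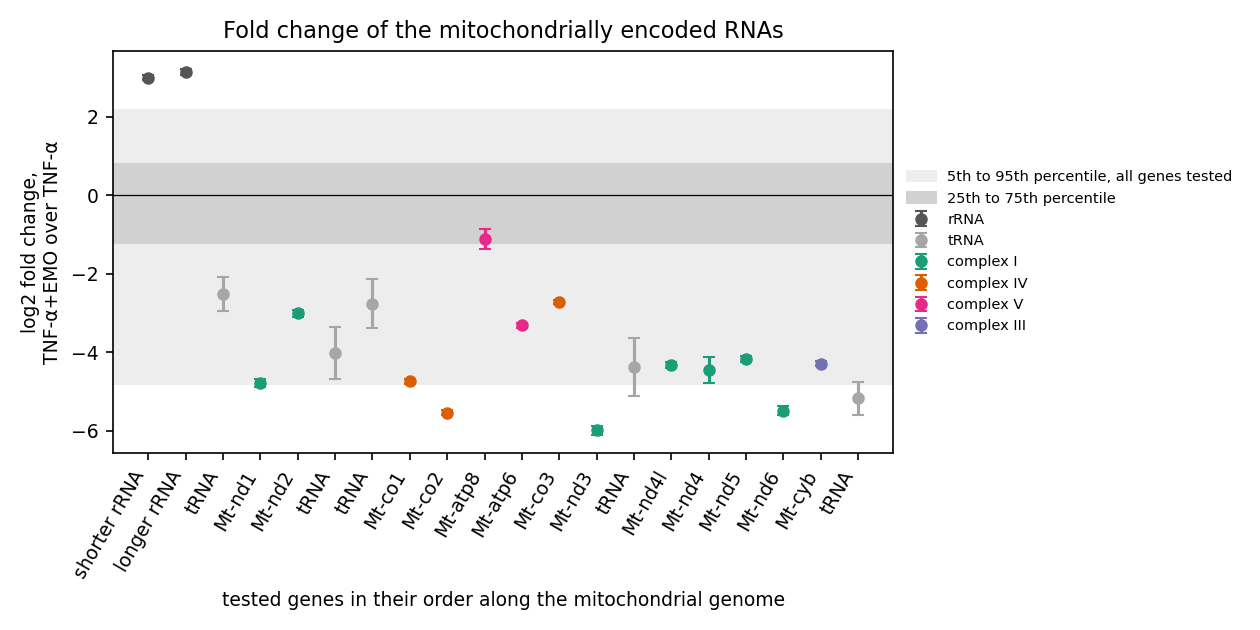
Log2 fold change of TNF-α+EMO over TNF-α for the 20 tested mitochondrial genes, drawn in their order along the mitochondrial genome with equal spacing. Points are edgeR estimates, bars are 1 SE, colours give the class, and the bands give the percentiles of all 13614 genes tested. The rRNAs stand at 3.00 and 3.15, and the mRNAs run from -1.11 for Mt-atp8 to -5.98 for Mt-nd3, with neighbours such as Mt-co3 and Mt-nd3 far apart.

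By complex, the summed normalized counts fell 15.2-fold for complex I, 19.5-fold for complex III, 17.8-fold for complex IV and 9.88-fold for complex V. In complexes I and IV the genes differed more from each other than these sums did. In complex I the log2 fold changes ran from -5.98 to -3.01 around a median of -4.46, and in complex IV from -5.55 to -2.72 around -4.74. The log2 ratio of complex I to complex IV counts was -2.01, -1.98 and -1.98 under TNF-α alone against -1.65, -1.79 and -1.87 with EMO. The groups did not overlap, but the difference was small at 0.22 on the log2 scale (exact two-sided permutation test, p = 0.1). Over the 12 mRNAs of the plus strand, the log2 fold change was not ordered by start position (Spearman's rho 0.08 as a description), gene length (-0.10) or per-length level in the TNF-α group (-0.14). The 12 points share the same libraries, and adjoining genes share a precursor.

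The unequal losses changed the make-up of the mitochondrial mRNA. Mt-co1 supplied 40.7% ± 0.384 of the mitochondrial mRNA counts in the TNF-α group and 24.3% ± 0.322 with EMO (SD, n = 3 each). Mt-co3 took its place as the most counted, going from 11.7% ± 0.150 to 28.5% ± 0.668. Mt-atp6 went from 11.7% ± 0.213 to 18.8% ± 0.315 and Mt-nd2 from 4.87% ± 0.0692 to 9.67% ± 0.613, and these 3, with the sparsely counted Mt-atp8, were the mRNAs that gained in share. Mt-co2 went from 10.0% ± 0.345 to 3.43% ± 0.0735, Mt-nd1 from 5.82% ± 0.0549 to 3.37% ± 0.316 and Mt-cyb from 10.2% ± 0.252 to 8.38% ± 0.160. These shares need no scaling between libraries, and among the 13 mRNAs the groups overlapped in share only for Mt-nd4. Since shares add to 100%, they are not independent of each other.

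**Figure D3:**
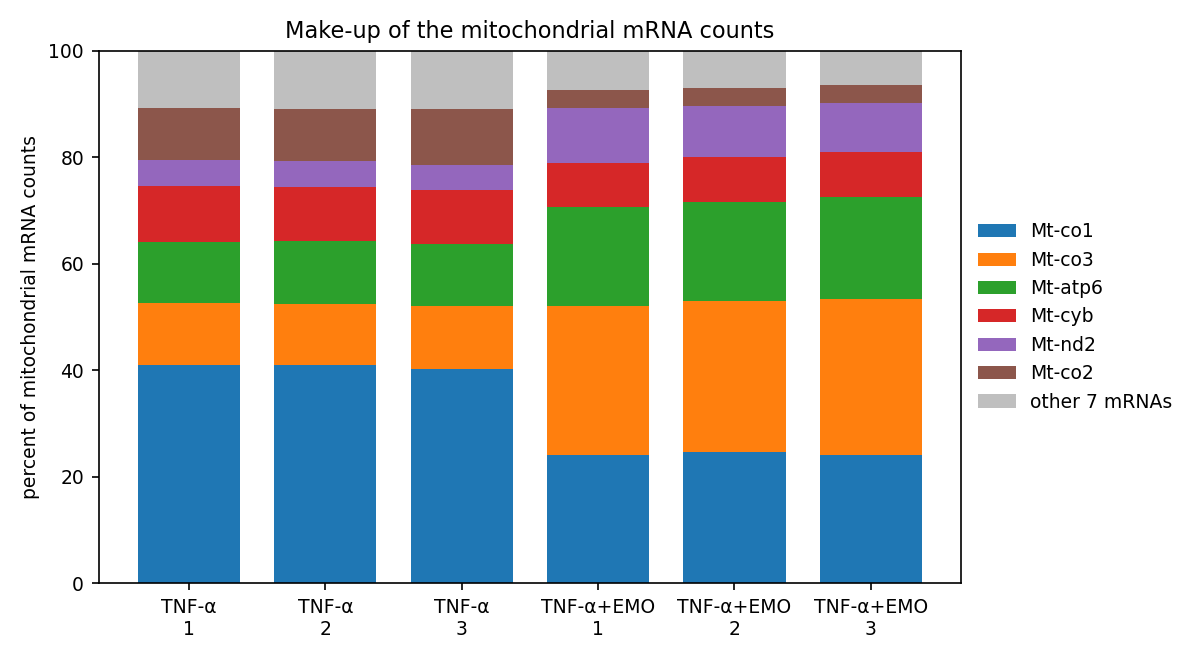
Percent of the mitochondrial mRNA counts taken by each of 6 mRNAs, and by the other 7 together, in each of the 6 libraries. Libraries of a group look alike, and the blue part (Mt-co1) is near 40.7% in the TNF-α group and near 24.3% with EMO, while the orange part (Mt-co3) is near 11.7% and 28.5%.

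Ordered by per-length level, the TNF-α group ran from Mt-co1 (9083 ± 378 CPM per kilobase) through Mt-atp6 (5914 ± 220), Mt-co3, Mt-co2 and Mt-cyb (3082 ± 150) down to Mt-nd6 (233 ± 8.67), Mt-nd4 (121 ± 34.0), both rRNAs and Mt-atp8 (23.4 ± 6.64). Neighbours whose libraries overlapped were Mt-co3 and Mt-co2, Mt-nd4 and the longer rRNA, and the 2 rRNAs. In the TNF-α+EMO group the longer rRNA (749 ± 44.2) and Mt-co3 (724 ± 31.2) stood first and overlapped, followed by the shorter rRNA (646 ± 4.25), Mt-atp6 (551 ± 29.8), Mt-co1 (314 ± 17.7), Mt-nd2 (186 ± 23.3) and Mt-cyb (146 ± 6.31). At the low end Mt-nd4 (5.11 ± 1.37) and Mt-nd6 (4.80 ± 1.03) overlapped.

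The rRNAs form the cores of the small and the large subunit of the mitochondrial ribosome. The shorter (ENSRNOG00000030478; MT, 68 to 1025, plus strand, 958 bases) is that of the small subunit and the longer (ENSRNOG00000043866; 1094 to 2664, plus, 1571 bases) that of the large subunit. The shorter rRNA had 1313, 1484 and 1458 counts under TNF-α alone against 10671, 10675 and 11050 with EMO. All TNF-α+EMO libraries lay above all TNF-α libraries, and the normalized counts went from 1385 ± 85.3 to 11062 ± 173 (log2 fold change 3.00, SE 0.07, adjusted p = 2.0e-11). The longer rRNA had 2249, 2630 and 2404 counts and then 21100, 20938 and 19527, or 2371 ± 181 and 21026 ± 998 normalized counts (log2 fold change 3.15, SE 0.07, adjusted p = 3.1e-11). By rank in per-length level, the rRNAs moved from between 856 and 1108 to between 106 and 149. Neither rRNA overlaps another row of the table on MT.

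The rRNAs rose by similar amounts. The log2 ratio of the shorter to the longer was -0.78, -0.83 and -0.72 under TNF-α alone against -0.98, -0.97 and -0.82 with EMO. These ranges overlap, and the difference of -0.15 gave p = 0.2 in the exact two-sided permutation test. Against the mRNAs the change was far larger. The summed rRNA counts were 0.00605, 0.00682 and 0.00690 of the summed mRNA counts under TNF-α alone against 0.866, 0.938 and 0.899 with EMO, a ratio 137-fold larger (log2 difference 7.10, exact two-sided permutation test, p = 0.1). This ratio is taken within a library, so it does not depend on how libraries were scaled. Both rRNA genes lie on the plus strand upstream of Mt-nd1, which follows the longer rRNA after 1 tRNA gene, and Mt-nd1 fell 27.5-fold.

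Nuclear RNAs of classes that mostly lack a poly(A) tail were set beside the rRNAs, since oligo(dT) purification bears on them too. They were taken by biotype and gene name, and the tails of single rows were not checked. Of 4094 such nuclear rows (4072 of rRNA, snRNA, snoRNA and related biotypes, and 22 histone genes), 95 passed the filter. Of these, 22 (23.2%) were lower, 18 (18.9%) higher and 55 not called, where 41.4% of all genes tested were lower and 39.4% higher. Their median log2 fold change was 0.02. The highest was 1.84. Their summed level was 211 to 215 CPM in the TNF-α group and 180 to 194 with EMO. None of these rows had a mean over 180 normalized counts in either group, where the mitochondrial rRNAs had 1385 and 2371 under TNF-α alone. Whether such low counts came from the tailless RNAs themselves was not tested, so they do not show how tailless RNA was captured. The part of oligo(dT) purification in the rise of the mitochondrial rRNAs was not tested.

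The tRNAs were sparsely counted, as is usual for short RNAs without tails. Summed over all 22 genes, they had 259, 364 and 230 counts under TNF-α alone against 13, 22 and 16 with EMO, 16.0-fold fewer normalized counts, with no overlap (exact two-sided permutation test of the share, p = 0.1). The ratio of tRNA to mRNA counts overlapped between the groups, with log2 means of -11.03 in each. The minus strand, with 8 tRNA genes, gave 197, 270 and 163 counts in the TNF-α group and 7, 12 and 9 with EMO. The plus strand, with 14, gave 62, 94 and 67 and then 6, 10 and 7.

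Of the 22 tRNA genes, 5 passed the filter, and all 5 were called lower. They passed through the TNF-α group, so this count is no support for a fall of the tRNAs. The most counted was the gene at 15348 to 15415 on the minus strand (ENSRNOG00000029145), with 136, 220 and 113 counts under TNF-α alone against 2, 3 and 7 with EMO (log2 fold change -5.18, SE 0.42, adjusted p = 6.3e-07). The gene at 2665 to 2739 on the plus strand (ENSRNOG00000032112), between the longer rRNA and Mt-nd1, had 21, 36 and 23 counts and then 4, 6 and 3 (log2 fold change -2.52, SE 0.43, adjusted p = 2.5e-04). It adjoins the longer rRNA, which rose, and Mt-nd1, which fell. The gene at 5185 to 5252 on the minus strand (ENSRNOG00000031333) had 23, 15 and 21 counts and then 3, 5 and 0 (log2 fold change -2.76, SE 0.62, adjusted p = 0.0018). At such counts the size of the change depended on single libraries, and leaving out 1 at a time gave log2 fold changes of -3.54 to -2.20 for this gene and of -5.83 to -4.85 for the most counted.

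In the other tested tRNA genes the TNF-α+EMO libraries lay at or under the floor of 3 counts. The gene at 9800 to 9867 on the plus strand (ENSRNOG00000032320) had 16, 30 and 27 counts under TNF-α alone against 0, 3 and 0 with EMO, which is at least 7.73-fold lower when 3 counts per library are taken for the latter. The gene at 5081 to 5152 on the minus strand (ENSRNOG00000032609) had 25, 18 and 14 and then 1, 0 and 2, at least 6.04-fold lower. Of the 17 tRNA genes not tested, 3 were at 0 in every library and none exceeded 10 counts. Together they had 38, 45 and 32 counts under TNF-α alone against 3, 5 and 4 with EMO, and by summed count 13 were lower, 1 higher and 3 equal. The only one of them to reach 10 counts lies at 6865 to 6933 on the minus strand and overlaps the end of Mt-co1 by 3 bases, with 4, 10 and 4 counts against 0 in each TNF-α+EMO library.

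Most nuclear genes that express the mitochondrial genome did not fall with its mRNAs. Of 56 tested genes for mitochondrial transcription, RNA processing, rRNA modification and DNA maintenance, 36 (64.3%) were higher, 9 (16.1%) lower and 11 not called, with a median log2 fold change of 0.60, where 39.4% of all genes were called higher and 41.4% lower and the median was -0.01. Past a log2 fold change of 1 in size, 13 were called higher (23.2%, all genes 19.5%) and 2 lower (3.57%, all genes 27.8%).

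Of the 8 transcription genes, 6 were higher and 0 lower by edgeR, with 0 lower at an unadjusted p under 0.05 and 0 by DESeq2. Polrmt, the mitochondrial RNA polymerase, rose from 340 ± 19.5 to 574 ± 28.5 normalized counts (log2 fold change 0.76, SE 0.09, adjusted p = 1.2e-05). Tefm, an elongation factor, rose by 1.03 (SE 0.14), Mterf3, a regulator of mitochondrial transcription, by 0.73 (SE 0.11) and Tfb2m, the initiation factor that opens the promoter, by 0.59 (SE 0.16) on the log2 scale. Tfam, which packages mitochondrial DNA and starts transcription, had 778 ± 29.0 and 836 ± 42.2 normalized counts and was not called (log2 fold change 0.10, SE 0.08, adjusted p = 0.23).

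Of 21 tested genes for RNA processing and stability, 12 were higher, 4 lower and 5 not called. The 4 lower were Hsd17b10 (log2 fold change -1.30, SE 0.41), Ptcd1 (-0.81, SE 0.13), Prorp (-0.44, SE 0.10) and Supv3l1. Lrpprc, which with Slirp keeps mitochondrial mRNAs stable, rose from 1797 ± 43.4 to 3507 ± 374 normalized counts (log2 fold change 0.96, SE 0.08, adjusted p = 6.2e-07), whereas Slirp had 418 ± 23.6 and 379 ± 41.9 (adjusted p = 0.23). Mtpap, the poly(A) polymerase of mitochondria, rose from 320 ± 26.6 to 815 ± 47.9 (log2 fold change 1.35, SE 0.09, adjusted p = 1.2e-07). Fastkd2, which binds the large-subunit rRNA, rose by 2.05 (SE 0.16), and Fastkd1, of the same family, by 1.84 (SE 0.12). Of the enzymes that degrade mitochondrial RNA, the helicase Supv3l1 fell from 516 ± 26.8 to 435 ± 14.1 (log2 fold change -0.25, SE 0.08, adjusted p = 0.018), and its partner nuclease Pnpt1 had 641 ± 51.0 and 718 ± 119 (adjusted p = 0.23). These smaller differences rested on single libraries. Without replicate 1 of the TNF-α group Supv3l1 was not called (adjusted p = 0.084), and without replicate 3 of the TNF-α+EMO group Pnpt1 was called higher (log2 fold change 0.27, adjusted p = 0.011) and Slirp lower (-0.24, adjusted p = 0.033).

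Of 15 tested genes for rRNA modification and ribosome assembly, 10 were higher, 2 lower and 3 not called. The rRNA methyltransferases Mrm3 and Mrm1 rose by 1.43 (SE 0.14) and 1.22 (SE 0.12) on the log2 scale, and Mtg1, a ribosome assembly GTPase, by 1.11 (SE 0.12). The 2 lower were Mrm2, a methyltransferase of the same family (log2 fold change -0.80, SE 0.23), and Rpusd3 (-0.26, SE 0.11). Of 12 genes for DNA maintenance, 8 were higher, 3 lower and 1 not called. Polg2, the accessory subunit of the mitochondrial DNA polymerase, rose from 146 ± 4.34 to 475 ± 21.0 normalized counts (log2 fold change 1.70, SE 0.10), and Tk2, a kinase that supplies its nucleotides, rose by 1.59 (SE 0.13). Polg, the catalytic subunit of that polymerase, was called lower, from 1400 ± 77.1 to 1125 ± 101 (log2 fold change -0.31, SE 0.08, adjusted p = 0.0041 by edgeR). Mgme1 was called lower as well (-0.49, SE 0.14). Primpol, a primase that restarts stalled replication in nucleus and mitochondria, fell from 224 ± 25.4 to 50.9 ± 12.5 (log2 fold change -2.13, SE 0.20, adjusted p = 1.9e-06).

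Most nuclear partners of the 13 encoded proteins did not fall either. Of 67 tested nuclear subunits of complexes I, III, IV and V, 46 (68.7%) were higher, 7 (10.4%) lower and 14 not called, with a median log2 fold change of 0.62. The complex V list includes the ATPase inhibitor Atp5if1, which is counted as a subunit here and below. The lowest log2 fold change among them was -0.89, where all 13 mitochondrial mRNAs were called lower with values under -1, and 16 (23.9%) were called higher with one over 1, near the 19.5% of all genes. By complex, 26 of 33 were higher in complex I, 5 of 9 in complex III, 6 of 9 in complex IV and 9 of 16 in complex V, with 2, 1, 1 and 3 lower.

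Replicate 3 of the TNF-α+EMO group had the highest value of its group in 60 of the 67 nuclear subunits. Without it, 47 were higher and 9 lower and the median log2 fold change was 0.44. Ndufb2, an accessory subunit of complex I, had 1000, 903 and 965 normalized counts under TNF-α alone against 2265, 2401 and 4238 with EMO, the last being replicate 3. Ndufa7 rose from 754 ± 37.5 to 2324 ± 264 (log2 fold change 1.62, SE 0.09) and Ndufs5 from 1036 ± 99.5 to 2542 ± 254 (1.29, SE 0.09).

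In complex III, Uqcrfs1, the iron-sulfur protein that works beside cytochrome b, rose from 3328 ± 97.6 to 6412 ± 250 normalized counts (log2 fold change 0.95, SE 0.06). Uqcrq, a small subunit, rose by 1.97 (SE 0.26) and Uqcr10, another, by 0.79 (SE 0.24), with replicate 3 of the TNF-α+EMO group the highest library for both. Without it the log2 fold change of Uqcr10 was 0.42. In complex IV, Cox4i1 and Cox5a, the first nuclear subunits to join the core formed by Mt-co1, rose from 4041 ± 119 to 11314 ± 1367 (log2 fold change 1.49, SE 0.08) and from 1587 ± 57.8 to 3797 ± 161 (1.26, SE 0.06). Cox6a1 rose by 1.08 (SE 0.24). In complex V, the rotor ring subunit Atp5mc1 rose by 1.38 (SE 0.16), the ATPase inhibitor Atp5if1 by 1.37 (SE 0.15) and the central stalk subunit Atp5f1d by 1.06 (SE 0.09) on the log2 scale. The mitochondrial and the nuclear subunits of the same complexes thus changed in opposite directions for most genes, in the same libraries and on the same scale.

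**Figure D4:**
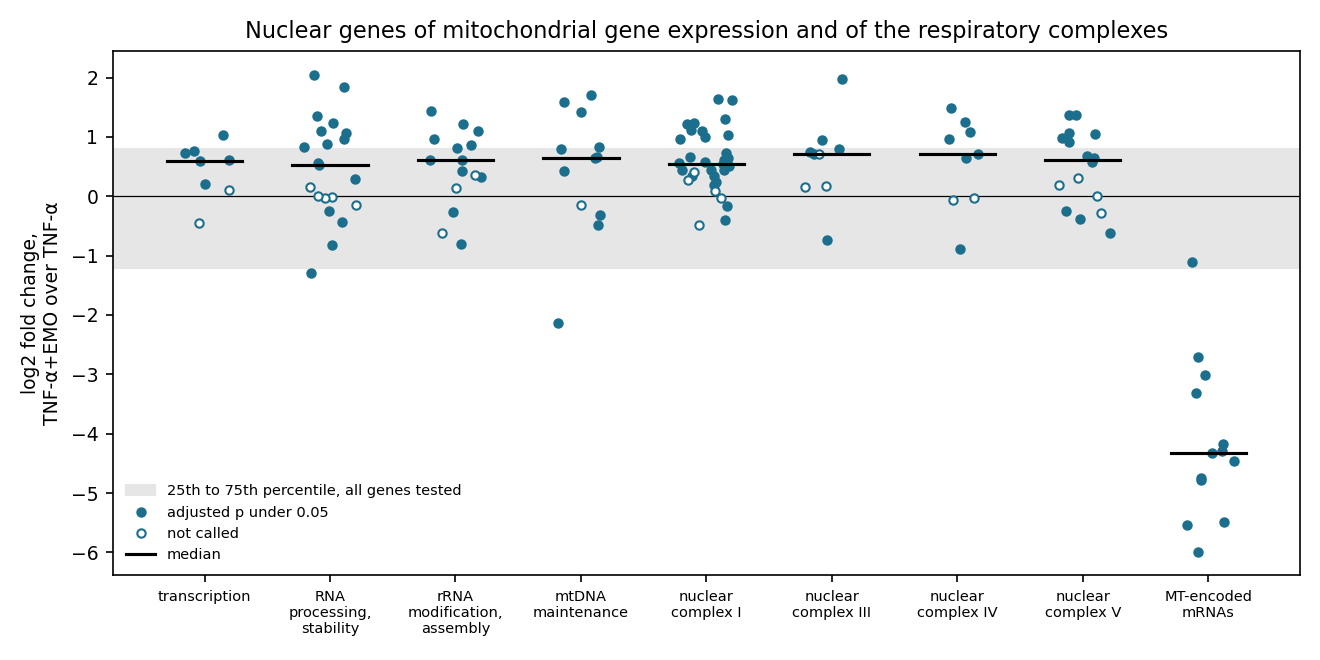
Log2 fold change of TNF-α+EMO over TNF-α for the tested nuclear genes of mitochondrial gene expression (4 lists, 56 genes) and of the respiratory complexes (4 lists, 67 genes), beside the 13 mitochondrial mRNAs. Filled points passed an adjusted p under 0.05, open points did not, bars are medians and the band is the range from the 25th to the 75th percentile of all genes. The medians of the nuclear lists lie between 0.52 and 0.72, and that of the mitochondrial mRNAs at -4.32.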

How the data were processed

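RNA of rat RA-FLS, 3 libraries per group as the labels give them, was sequenced as poly(A)-selected paired-end libraries. The submitters' processing notes name FastQC, Trimmomatic, HISAT2 and the build Rnor_6.0. The counting program, its strand setting and its treatment of reads on several genes or sites are not given in the sources used here. The authors deposited raw counts per gene, which were used for every result. The authors also deposited FPKM values, mean scores per group (a normalized signal), and a log2 fold change, p-value and adjusted p-value per gene. The FPKM values entered only an alternative for shares and ratios, and the others were not used.

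The 13614 genes that reached 10 counts in 3 or more libraries were fitted on the whole table with edgeR 4.0.16 in R 4.3.3 (TMM, robust quasi-likelihood F test, Benjamini-Hochberg adjustment over all genes tested, calls at an adjusted p under 0.05). Counts called normalized were scaled to the mean TMM library size. The fit gave a common biological coefficient of variation of 0.121. Per-length levels are counts per kilobase of deposited gene length per 1000000 counts of the library total, and ranks are over all 34156 rows. Shares and ratios are per library and were tested by exact permutation in scipy 1.17.1. A floor of 3 counts per library covers counting error only, as no molecular identifiers were counted and reads may be copies. The fit was tested on simulated counts, simulating TNF-α+EMO against TNF-α over 13531 genes of which 200 were changed. Recovery was 100% by edgeR, with 6.10% of its calls false, and 100% by DESeq2 1.42.0, with 8.26% false. The simulation changed few genes, in equal numbers up and down, where 80.9% of genes were called in the real data. These rates therefore do not carry over to the calls given here.

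The members and gene lists were chosen with earlier results of these data known. Every mitochondrial mRNA and rRNA and each tRNA with at least 10 counts in any library was named, as were 9 nuclear genes (Polrmt, Tfam, Tfb2m, Tefm, Lrpprc, Slirp, Mtpap, Pnpt1 and Supv3l1) and, per nuclear list, the 3 called genes with the largest change among those with a mean of at least 100 counts. Genes called lower that are named beyond these rules were chosen after their values were seen. Of the factor lists 57 of 58 genes, and of the subunit lists 69 of 72, were matched by symbol. The rest were not analysed here, nor were the markers Col1a2 and Pecam1. The alternatives were other scalings, filters and thresholds, DESeq2, the replicate block and leaving out each library.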

Additional observations from a re-analysis of the deposited data

How the results depend on the processing

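All 13 mRNAs stayed lower and both rRNAs higher past the threshold in all 15 alternative fits (other scalings and filters, DESeq2, the replicate block and each library left out), with medians of -4.43 to -4.27 and 2.96 to 3.12. The largest move of a log2 fold change among them was 0.212, for Mt-atp8 without replicate 3 of the TNF-α group. The median of all genes tested was -0.125 with library totals only and -0.128 with no filter beyond 1 count, against -0.01. The tRNA genes moved more, the most being the gene at 9800 to 9867, whose fitted log2 fold change of -4.38 ranged from -7.59 without replicate 2 of the TNF-α+EMO group, which left it at 0 there, to -3.85. All 5 tested tRNA genes stayed called lower in these fits. With no filter beyond 1 count, 10 tRNA genes were called lower in place of 5. With an absolute log2 fold change over 1 also required, 15 in place of 45 nuclear factors and 16 in place of 53 nuclear subunits were called, and the higher calls still outnumbered the lower. Taken over protein-coding rows, the mitochondrial share differed by -3.31 percentage points in place of -3.09. Leaving out each library gave a log2 difference of 7.04 to 7.13 for rRNA to mRNA, 0.158 to 0.269 for complex I to complex IV, -1.60 to -1.37 for Mt-nd6 and -0.203 to -0.122 for the shorter to the longer rRNA. Of the nuclear lists, 33 to 37 factors and 41 to 49 subunits were called higher in the alternative fits. With library totals only, Slirp was called lower (log2 fold change -0.26, adjusted p = 0.038) and the log2 fold change of Tfam, not called in either fit, was -0.01.

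The replicate numbers showed no pairing of the libraries, as deviations of same-numbered libraries correlated at 0.0196, -0.000513 and 0.0566. With 3 libraries per group this cannot show that they were unpaired. With the replicate block, 13 mRNAs, 5 tRNA genes and 2 rRNAs were called as before, with 44 factors and 55 subunits. The removal of the 4 mRNAs that overlap each other by more than a base on the same strand, and of Mt-nd4l and Mt-nd4 from the complex I to IV ratio, was added after seeing the data and changed no direction. The deposited FPKM times gene length was the counts times a constant in each library, so shares and ratios from it had to equal those from counts and say nothing about their stability. Depth limits the tRNA genes, of which 17 had too few counts to test.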

Other observations

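A row of the table outside MT also carried mitochondrial protein domains. It lies on chromosome 5 (6372710 to 6373355, plus strand, Rnor_6.0), has no Ensembl identifier, and is described in the table by the domains of NADH dehydrogenase subunit 3 and cytochrome c oxidase subunit 3. It had 42, 38 and 46 counts under TNF-α alone against 2, 6 and 9 with EMO (log2 fold change -2.80, SE 0.42, adjusted p = 9.0e-05 by edgeR). Mitochondrial sequence copied into nuclear chromosomes is known in mammals, and whether reads of the mitochondrial genes were placed on this row, or the reverse, was not tested.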
